A study of Saccharomyces cerevisiae with 3 samples.

Results

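Cytochrome c oxidase, or complex IV, is the enzyme of the mitochondrial inner membrane that passes electrons from cytochrome c to oxygen, and a set of dedicated proteins builds it without remaining part of it. The genes described here are 9 such assembly factors of the budding yeast Saccharomyces cerevisiae. They were chosen by name as the genes COX10, COX15, COX17, SCO1, SCO2, COX11, COX14, COX18 and COX20. No signal was a criterion of the choice, but earlier results of these data were known when it was made. Each had 1 probe set that the platform annotation pairs with that gene alone, so all 9 were measured, of 5656 genes in all, and none of these probe sets carries the letter code of those shared within a gene family. Their transcripts were read on Affymetrix arrays in 3 independent chemostat cultures with 1 array each, which form a single group. Growth in these steady-state cultures was limited by glucose (7.5 g per litre of feed) at a dilution rate of 0.10 per h, 30 °C and pH 5.0, and aeration kept dissolved oxygen above 80% of air saturation. Per litre, the feed also contained ammonium sulphate at 5.0 g and zinc sulphate heptahydrate at 4.5 mg. The sources used here do not name the strain, and no other condition was analysed here, so values are compared between cultures and no p-value is given.

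The catalytic core of the oxidase is made of Cox1, Cox2 and Cox3, which yeast encodes in the mitochondrial genome, and it is surrounded by smaller subunits imported from the cytosol. Its redox centres are heme a groups and copper ions, so the assembly factors fall into those that make heme a, those that carry copper, and those that guide Cox1 and Cox2 as they are made and inserted into the membrane. Yeast cells that lack one of the required factors cannot respire.

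The values are probe set intensities on a linear scale as the submitters deposited them, and each level below is such a signal. Brightness on the array does not order genes by transcript abundance, because probe sets differ in how well they bind. Over the 5656 genes, culture 1 had a median signal of 54.7, culture 2 one of 127 and culture 3 one of 96.7, and the number of arrays (n = 3) limits the precision of every SD. The sense-strand controls, for which no target was labelled, read up to 26.3, and all 9 assembly factors were above that in every culture, the lowest signal being 44.4 for SCO2 in culture 1. As a check of the labelled aerobic growth, 6 isoform genes were read, each as a level of its own probe set. Of the aerobic isoforms, the cytochrome c gene CYC1, the oxidase subunit gene COX5A and the translation factor gene HYP2 were bright. Of their hypoxic counterparts, COX5B (mean 15.4) and ANB1 were dim, while CYC7, that of CYC1, was not dim and read 43.5, 103 and 55.3 in cultures 1, 2 and 3. Each array read RNA from a whole culture, so a lower level in every cell and a smaller share of cells with the transcript cannot be told apart.

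By mean signal, 2 of the 9 assembly factors were bright, meaning over the 90th percentile of all genes (589.6), and none was dim, meaning under the 30th percentile (48.3). By construction 10% of all genes are bright and 30.0% are dim. The bright ones were COX15 and COX20, and COX20 at a mean of 595 lay just inside the limit. The median of the 9 mean signals was 169, beside 93.9 over all genes. In culture 1 and in culture 3, 8 of the 9 signals were above the median of that array, and in culture 2 this held for 7. SCO2 was under the array median in each culture, and SCO1 joined it in culture 2.

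**Figure D1:**
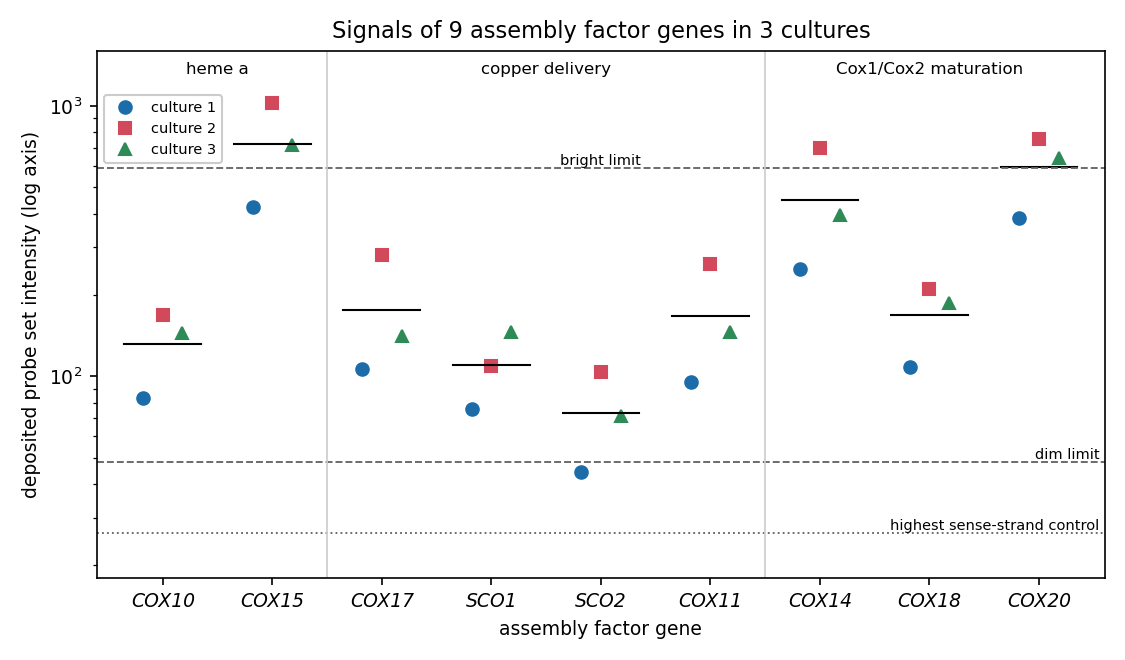
Deposited probe set intensity (log axis) of the 9 assembly factor genes, ordered by role, in cultures 1, 2 and 3; black bars are means over the 3 cultures, and dashed lines mark the limits for bright (589.6) and dim (48.3) means and the highest sense-strand control (26.3). All points lie above the control, COX15 and COX20 have means above the bright limit, and SCO1 is the gene whose highest signal is in culture 3.

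The genes of the heme a enzymes followed the array-wide order of the cultures. COX10 (YPL172C) encodes the farnesyltransferase that turns protoheme into heme o, and COX15 (YER141W) encodes the enzyme that oxidises heme o towards heme a. COX10 read 83.4 in culture 1, 169 in culture 2 and 144 in culture 3 (mean 132 ± 44.0, SD, n = 3). That of COX15 was 424, 1025 and 716 in cultures 1, 2 and 3 (mean 721 ± 301). Both were lowest in culture 1 and highest in culture 2, as were the array medians. Ranked within each array, COX15 held the 91.7th, 92.5th and 91.6th percentile of all genes in cultures 1, 2 and 3, and COX10 the 63.1st, 58.8th and 62.3rd.

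Copper reaches the oxidase through a relay in the intermembrane space. COX17 (YLL009C) encodes the soluble copper chaperone that passes copper to Sco1 and Cox11, and it read 106 in culture 1, 282 in culture 2 and 142 in culture 3 (mean 176 ± 92.7). Culture 2 stood apart as high, and culture 3 was nearer to culture 1. SCO1 (YBR037C) encodes the inner membrane protein that places copper in the site of Cox2, and it read 75.9, 109 and 145 in cultures 1, 2 and 3 (mean 110.1 ± 34.8). Among the 9 genes SCO1 was the exception to the order of the arrays, being highest in culture 3.

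SCO2 (YBR024W) encodes a close relative of Sco1 that yeast does not need for respiration, and it had the lowest mean of the 9. It read 44.4 in culture 1, 103 in culture 2 and 71.6 in culture 3 (mean 73.2 ± 29.6). COX11 (YPL132W), whose product delivers copper to the site in Cox1, read 95.5, 260 and 145 in cultures 1, 2 and 3 (mean 167 ± 84.3). None of these 4 copper genes was bright. COX17, SCO2 and COX11 followed the order of the array medians, and in COX17 and COX11 culture 2 was well above culture 3.

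The remaining factors act on the mitochondrially made core subunits. COX14 (YML129C) encodes a small membrane protein that binds newly made Cox1 and takes part in the feedback that adjusts Cox1 synthesis to assembly. It read 250.4 in culture 1, 698 in culture 2 and 396 in culture 3 (mean 448 ± 228). COX18 (YGR062C), needed to move the C-terminal tail of Cox2 across the inner membrane, read 109, 211 and 187 in cultures 1, 2 and 3 (mean 169 ± 53.5). COX20 (YDR231C), a chaperone of Cox2 that is needed for removal of its leader peptide, read 386, 757 and 643 in cultures 1, 2 and 3 (mean 595 ± 189.9). In COX18 and COX20 culture 3 came close to culture 2, whereas in COX14 it lay nearer to culture 1.

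Much of the spread in these signals was shared by the whole array. The median log2 ratio over the 3959 genes that were not dim was 1.21 for culture 2 over culture 1 and 0.80 for culture 3 over culture 1. As deposited, 6 of the 9 assembly factors ranged over 2-fold across the cultures, beside 75.5% of not-dim genes, and the other 3 (SCO1, COX18 and COX20) had ranges of 1.92-fold, 1.94-fold and 1.96-fold. That count was 0 without culture 1, beside 3.16% of not-dim genes, and 0 without culture 2, beside 23.8%. The deposited signal was lowest in culture 1 for 9 of 9, beside 98.2% of not-dim genes, and highest in culture 2 for 8 of 9, beside 87.0%.

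With each array's log2 signals shifted to a common median over all genes, none of the 9 assembly factors ranged over 2-fold, beside 3.59% of not-dim genes. Their median SD of log2 signal was 0.14, against 0.18 over not-dim genes, and the SDs ran from 0.06 for COX15 to 0.44 for SCO1. COX15, SCO2, COX10, COX20 and COX18 had SDs under the 0.18 of the median not-dim gene, at the 7.27th, 12.2nd, 22.3rd, 29.1st and 34.5th percentile of those genes. COX14 and COX11 lay at the 60.3rd and 63.0th percentile, COX17 at the 81.1st and SCO1 at the 93.4th. These SDs rest on 3 arrays, and with 1 culture left out that of COX10 was 0.02 to 0.14, that of COX18 0.03 to 0.19 and that of SCO2 0.0004 to 0.10, the lowest being without culture 2 for COX10 and COX18 and without culture 3 for SCO2. Those of COX20 and COX14 came down to 0.06 and 0.11 without culture 2, and that of COX15 to 0.04 without culture 3. The 4 copper genes held the most variable of the 9, SCO1, and one of the steadiest, SCO2, and their median SD was 0.26.

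SCO1 was the most variable of the 9 by this measure. Its log2 deviation from its own mean over the cultures was 0.19, -0.50 and 0.31 in cultures 1, 2 and 3, a 1.76-fold range in which culture 2 alone was low. Within the arrays it held the 59.9th percentile in culture 1, the 45.3rd in culture 2 and the 62.5th in culture 3. Without culture 2 the SD of SCO1 was 0.08, so its spread came from that culture. SCO2 did not share this drop, with deviations of 0.05 in culture 1, 0.04 in culture 2 and -0.09 in culture 3. The log2 ratio of the SCO1 signal over the SCO2 signal was accordingly 0.77, 0.08 and 1.02 in cultures 1, 2 and 3, where only the change of the ratio between arrays can be read.

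COX17, the donor of copper to Sco1, departed in the other direction. Its deviation was 0.07, 0.26 and -0.33 in cultures 1, 2 and 3, a 1.51-fold range, and its percentile within the arrays was 69.0, 72.6 and 61.8 in cultures 1, 2 and 3. Without culture 3 its SD was 0.13, against 0.30 over all cultures. COX11 deviated by 0.22 in culture 2 and by -0.22 in culture 3, and COX14 by 0.23 and -0.19. In all 3 of these genes culture 2 was highest and culture 3 lowest. With COX15, whose log2 range was only 0.12, this order was held by 4 of the 9, beside 18.1% of not-dim genes. The log2 ratio of the COX17 signal over the SCO1 signal was 0.48, 1.37 and -0.04 in cultures 1, 2 and 3. Between cultures 2 and 3 that ratio changed 2.65-fold. SCO1 and COX17 had the largest SDs of the 9 and opposite deviations in cultures 2 and 3, so this change follows from the values above. The log2 ratio ranged over 1.41 for this pair and 0.95 for SCO1 over SCO2. For the other pairs read, it ranged over 0.29 (COX10 over COX15) and 0.58 (COX14 over COX20). The share of gene pairs with such changes was not counted.

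COX10, COX18 and COX20 differed little between cultures, each with an SD under that of the median not-dim gene. In each, culture 2 was lowest and culture 1 highest, though for COX10 cultures 1 and 3 were close (0.08 and 0.05). Of the 3959 not-dim genes, 1388 were highest in culture 1 and 1424 lowest in culture 2. The share with both was not counted. In culture 2 the deviations of COX10, COX18 and COX20 were -0.12, -0.16 and -0.14, and their ranges were 1.15-fold, 1.20-fold and 1.19-fold. Together with SCO1, 4 of the 9 were lowest in culture 2, beside 36.0% of not-dim genes, and 5 of the 9 were lowest in culture 3, beside 33.6%. The median deviation of the 9 was 0.07, 0.04 and -0.06 in cultures 1, 2 and 3, beside 0.02, 0.007 and -0.007 over not-dim genes. The directions given for SCO1, COX17, COX11, COX14, COX10, COX18 and COX20 in cultures 2 and 3 were the same after quantile normalization and after cyclic loess, while COX15 was lowest in culture 1 after cyclic loess and SCO2 highest in culture 2 after quantile normalization.

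**Figure D2:**
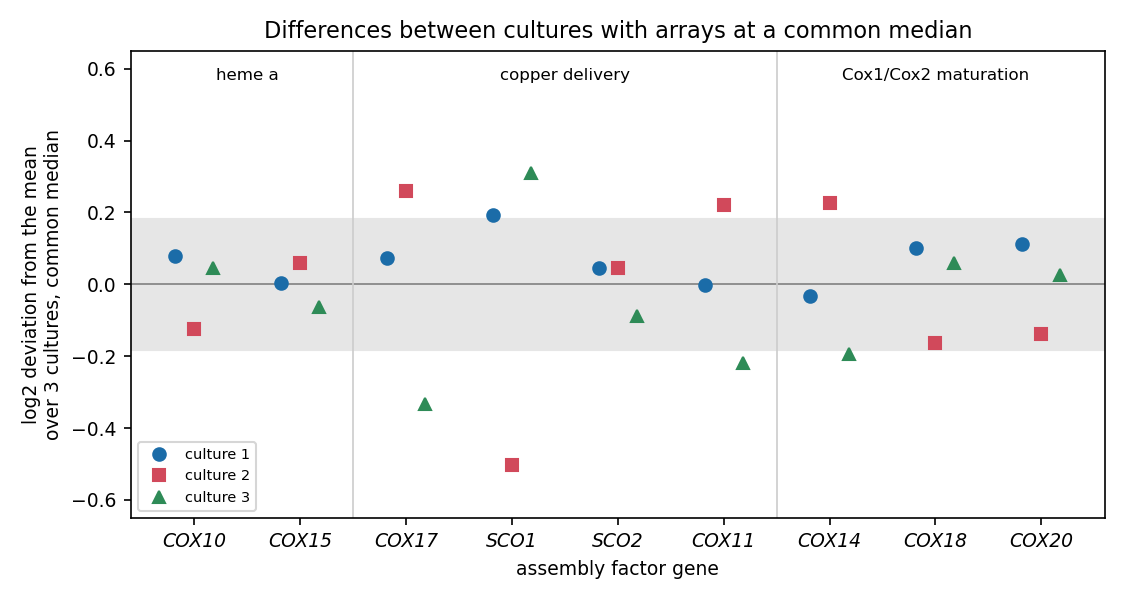
Log2 deviation of each assembly factor gene from its mean over the 3 cultures, with arrays at a common median; points are cultures 1, 2 and 3, and the grey band spans plus and minus the median SD of not-dim genes (0.18). SCO1 in culture 2 (-0.50) and COX17 in culture 3 (-0.33) lie farthest below 0, and COX15, SCO2, COX10, COX18 and COX20 stay within the band.

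Other genes needed for the same enzyme were read from lists of its further assembly factors, of activators of COX1, COX2 and COX3 translation, and of its subunits. Of 21 other assembly factors 20 were measured (CMC2 was not analysed here), 1 was bright and 2 were dim. The median mean signal was 169 for the 9 genes above and 123 for these 20. COA3, whose product works with Cox14 on Cox1, was the bright one at 463, 1332 and 886 in cultures 1, 2 and 3. PNT1, whose product acts with Cox18 in exporting Cox2, was dim at 17.4, 26.1 and 16.8 in cultures 1, 2 and 3, values not above the 26.3 of the controls. None of the 18 not-dim genes of this list ranged over 2-fold at a common median, beside 3.59% of all not-dim genes.

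The most variable of them was COX19, a protein of the intermembrane space that works with Cox11, with 52.2, 80.9 and 99.1 in cultures 1, 2 and 3. Its deviations of 0.16, -0.43 and 0.26 in cultures 1, 2 and 3 have the same signs as those of SCO1. OXA1, which encodes the insertase of the inner membrane and was picked after its values were seen, also did so, with 0.14, -0.41 and 0.27. SOM1 of this list, picked in the same way, had these signs too, at 0.08, -0.13 and 0.05. So did COX10, COX18 and COX20, and the genes COX1, COX12 and YAH1 read below. A gene with these signs is lowest in culture 2, as were 36.0% of not-dim genes. The share of not-dim genes with these signs was not counted. In the list as a whole 9 of 18 genes were lowest in culture 3 and 4 of 18 in culture 2, so genes lowest in culture 3, like COX17, and genes lowest in culture 2, like SCO1, both occurred among them.

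The electron donors of Cox15, ferredoxin YAH1 and its reductase ARH1, were neither dim nor bright. YAH1 read 328, 393 and 503 in cultures 1, 2 and 3 and ARH1 read 89.1, 172 and 133. COX15 ranged over 1.09-fold at a common median, and YAH1 over 1.95-fold with deviations of 0.39, -0.57 and 0.18 in cultures 1, 2 and 3. Of the 6 translation activators 3 were dim and none was bright. MSS51, which activates COX1 mRNA and is the partner through which Cox14 acts, was the brightest of them at 181, 394 and 377 in cultures 1, 2 and 3. PET54, an activator of COX3 translation, was the most variable not-dim one (76.0, 254 and 158), and PET122, another, had the lowest mean (7.01, 13.04 and 25.9). In cultures 1 and 2 PET122 was under the highest control of its array (23.2 and 26.3), and in culture 3 it was above that control (24.2).

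The subunits that these factors assemble were read beside them. Of the 9 assembly factors 2 were bright, against 8 of the 9 nuclear structural genes, and the median mean signal was 169 for the assembly factors and 1364 for the structural genes. Of the structural genes COX7 was the brightest at 908, 2338 and 1312 in cultures 1, 2 and 3, and COX5B the only dim one. These are counts of brightness and no test was made of the difference. Among the mitochondrially encoded subunits COX1 was bright, with 538, 865 and 1166 in cultures 1, 2 and 3, and COX2 and COX3 were dim, COX2 at 2.27, 6.95 and 2.14. In every culture COX2 and COX3 were under the highest sense-strand control of that array (23.2, 26.3 and 24.2). Their transcript levels therefore cannot be read from these signals, and how well the assay labels mitochondrial transcripts was not tested.

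In culture 3 COX17, COX11 and COX14 lay on the same side as most structural genes. At a common median, 5 of the 9 assembly factors and 7 of the 8 not-dim structural genes were lowest there. The same held for 33.6% of not-dim genes and 43.6% of bright genes. The median deviation of the 8 structural genes was 0.08, 0.13 and -0.21 in cultures 1, 2 and 3. The count of 7 of 8 was the same after quantile normalization and after cyclic loess, where the culture 3 median was -0.16 in both. Of the assembly factors, 5 of the 9 were lowest in culture 3 after quantile normalization and 4 of the 9 after cyclic loess. In the same 2 settings the share was 31.83% and 31.42% of not-dim genes, and 31.45% and 30.92% of bright genes. The eighth structural gene, COX12, encoding a small subunit on the intermembrane space side, read 1221, 867 and 2140 in cultures 1, 2 and 3. It ranged over 3.28-fold at a common median, with a deviation of -1.14 in culture 2.

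**Figure D3:**
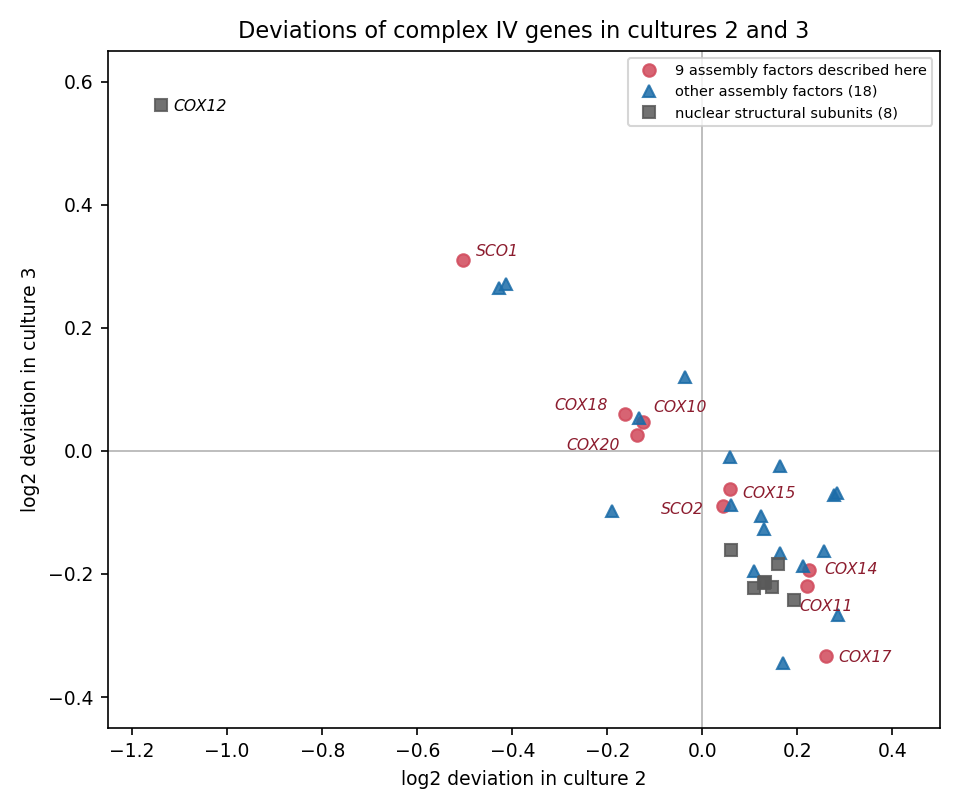
Log2 deviation in culture 2 (x axis) against that in culture 3 (y axis), arrays at a common median, for the 9 assembly factors, the 18 not-dim other assembly factors and the 8 not-dim nuclear structural subunits; deviations of a gene sum to 0 over the 3 cultures, which by itself tilts the points downward. COX17, COX11 and COX14 lie at the lower right with 7 of the structural genes, SCO1 lies at the upper left, and COX12 (-1.14 in culture 2) is farther out than any assembly factor.

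The probe set numbers of COX12 and COX17 are 44 apart, in a stretch where several probe sets were low in culture 2. Within 100 numbers of COX17 there were 101 not-dim genes, and 6 of them deviated by less than -1 in culture 2 (MEF1, COX12, SSL1, SSK1, ISA1 and GTT2, picked after their values were seen), beside 0.278% of not-dim genes, which is 11 genes in all. COX17 itself deviated by 0.26 there, and its 20 nearest probe sets had a median of -0.03 in culture 2, with 2 of the 20 below -0.5. For SCO1 the 20 nearest probe sets had a median of 0.06 in culture 2, 15 of the 20 being above 0 and 1 of the 20, SLA1 at -0.55, below -0.5, while SCO1 was at -0.50. For the other assembly factors the median of the 20 nearest was between -0.08 and 0.02 in culture 2. Nearly all these neighbours in number lie on the same chromosome as the gene. Around COX17 the numbers follow gene order only in blocks, with YLR118C at 10237 and YLR074C at 10238. Nearness on the genome and nearness in probe set number were not separated here, and their part in the values was not tested.

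**Figure D4:**
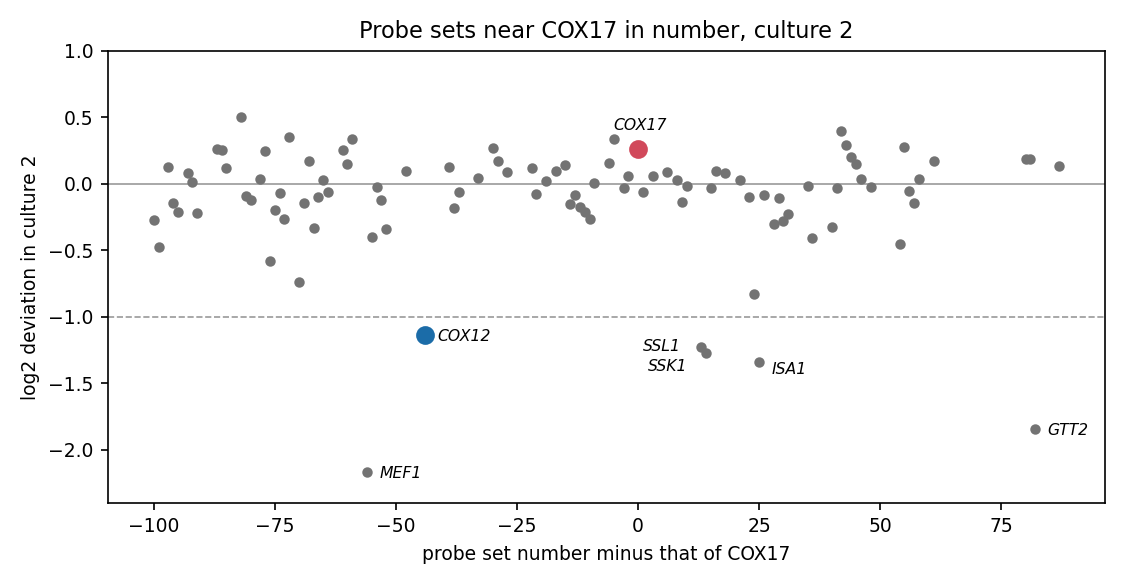
Log2 deviation in culture 2, arrays at a common median, of the 101 not-dim genes whose probe set numbers lie within 100 of COX17 (x axis, probe set number minus that of COX17); the dashed line marks -1. The 6 genes below the line, COX12 among them, are scattered through points near 0, and COX17 lies above 0 at 0.26.

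The genes whose differences between cultures were most like the median of the 9 assembly factors were PKR1, PSF3 and ROG1. Likeness was measured over the 3 arrays as the largest difference in log2 deviation in any culture, which was 0.02 for each of them. With 3 arrays this measure is coarse, since 96 of 3950 other not-dim genes (2.43%) lay within 0.05, as did 1 of the 9 assembly factors themselves.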

How the data were processed

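Biotin-labelled target from each culture (one-cycle assay) was read on its own Affymetrix array, per the labels' protocols. The deposited values are probe set intensities, and the submitters' processing notes name GCOS. The sources used here do not give the probe summary, background correction or scaling. Of 9335 probe sets, 6504 had 1 gene in the platform annotation, 328 several, 2443 none and 60 were controls. Genes were named through a RefSeq table (R64), and 5656 were each represented by 1 probe set, the plain-named one first. Signals under 1 were set to 1 before log2. Differences between cultures used a common median over these genes, and left out genes with a mean signal under the 30th percentile. Alternatives were no scaling, quantile normalization and cyclic loess (limma 3.58.1, R 4.3.3), log2(signal + 16), other limits, the mean over probe sets and leaving out each culture. A common median over all probe sets and leaving out COX17 were added after the data were seen. Python 3.11.15, numpy 2.4.6 and pandas 2.3.3 did the rest, and the count over genes was tested on simulated data.

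The assembly factors and lists were chosen with earlier results of these data known. All 9 are named, and of each other list the highest and lowest mean, the largest SD and any gene ranging over 2-fold at a common median. HYP2, the brightest of the oxygen isoforms and the most variable not-dim one, had a mean signal of 5436 and an SD of 0.33 on the log2 scale at a common median, but of 0.03 after quantile normalization and 0.10 after cyclic loess, where CYC7 was the most variable at 0.27.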

Additional observations from a re-analysis of the deposited data

How the results depend on the processing

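With 3 arrays of 1 group no test was possible, and no paired analysis was possible because there is only 1 group. Without scaling, 6 of the 9 assembly factors ranged over 2-fold and their median deviation was -0.61 in culture 1 and 0.58 in culture 2. The 2-fold count at a common median was 0 under every alternative but that one. As deposited it was 0 to 6 with 1 culture left out, beside 3.16%, 23.8% and 72.6% of not-dim genes without cultures 1, 2 and 3. The number of bright assembly factors was 0 at the 95th percentile and 1 to 2 with 1 culture left out, and the number of dim ones was 1 at the 50th percentile. The median deviation of the 9 in culture 2 changed sign, to -0.03, with dim set below the 50th percentile and to -0.04 without COX17, and in both of these the culture 3 median was -0.02. Without culture 3 the medians were 0.0003 in culture 1 and -0.0003 in culture 2.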
